A study of Mus musculus with 2 samples.

Results

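The 10 genes described here belong to leukaemia inhibitory factor (LIF) and gp130-STAT3 signalling and were measured in the mouse uterus on gestational day 4. They are Lif, Il11, Lifr, Il6st, Il6ra, Il11ra1, Jak1, Jak2, Stat3 and Socs3. They were taken by symbol and were all found, 10 of the 55363 gene symbols in the data. The libraries came from whole uterus of mated females aged 6 to 8 weeks, with the vaginal plug counted as day 1. One library carried the genotype f/f for Mettl14 and served as the control, and the other carried d/d, which in the usual notation mean floxed and deleted alleles. Mettl14 encodes a subunit of the enzyme that methylates adenosine in RNA (m6A). The driver of the deletion, the strain and the number of animals behind each library were not stated in the labels. The unit is FPKM, the fragments of a gene scaled to its length in kilobases and to the mapped fragments of the library, so levels of different genes can be set side by side. With 1 library per genotype there is no replicate error and no test, and every difference given is one between these libraries. A gene is called higher or lower where the ratio of (FPKM + 1), d/d over f/f, is at least 2-fold.

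As background, cytokines of the interleukin-6 family signal through the shared receptor chain gp130, encoded by Il6st. LIF joins gp130 to the LIF receptor, whereas interleukin-6 and interleukin-11 each first bind a receptor chain of their own. Janus kinases held by gp130 then phosphorylate STAT3, which enters the nucleus, and SOCS3 binds gp130 and stops the signal. In the mouse, estrogen on day 4 of pregnancy induces Lif in the uterine glands, and females without Lif do not let embryos attach. Loss of the interleukin-11 receptor instead impairs the decidua, the stromal tissue that forms after attachment.

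The largest differences among the 10 genes were in the ligands, and they had opposite signs. Lif was 0.976 FPKM in f/f against 12.7 FPKM in d/d, a 13.1-fold higher level in d/d. Il11, the other ligand, was 4.55 FPKM in f/f against 0.676 FPKM in d/d, a 6.72-fold lower level in d/d. Each of these ligands was thus under 1 FPKM in one library and passed the expression filter through the other library alone. Lif was 4.66-fold below Il11 in f/f and 18.8-fold above it in d/d.

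On the scale of log2(FPKM + 1), the ratio of Lif was 2.80, and 216 of the 16263 genes at 1 FPKM or more in a library had a ratio as high or higher. The ratio of Il11 was -1.73, at or below which lay 434 genes. From the steps of low values, the f/f library held an estimated 17750000 fragments and the d/d library 20850000. Over the longest coding transcript of Lif, of 4026 nt, its FPKM then corresponds to about 69.8 and 1069.8 fragments in f/f and d/d. For Il11, with 1949 nt, it corresponds to about 157 and 27.5 fragments. These numbers are approximate, and Il11 in d/d rests on the fewest fragments of any value of these genes.

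**Figure D1:**
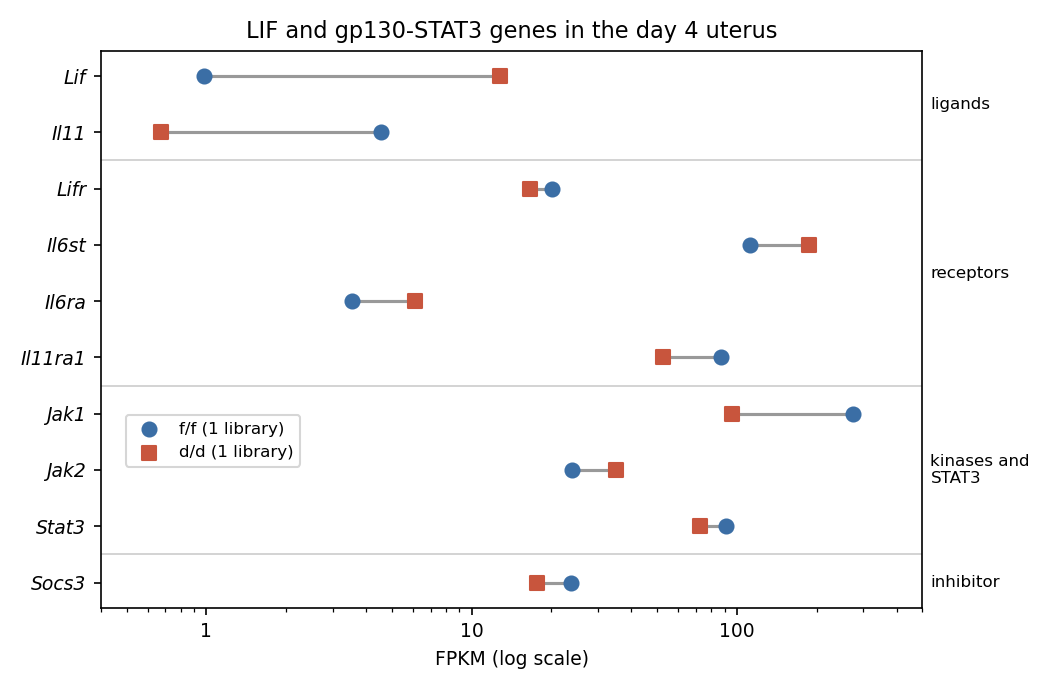
FPKM of the 10 genes on a log axis, with circles for the f/f library, squares for the d/d library and a line joining the 2 values of a gene. Lif moves from 0.976 to 12.7 FPKM and Il11 from 4.55 to 0.676, and Jak1 from the highest place at 273 FPKM to 95.7.

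Lif lies on the plus strand of chromosome 11, from 4257557 to 4272514, and Il11 on chromosome 7, minus strand, between 4772373 and 4782859 (GRCm38). For both genes a stretch upstream of a RefSeq start site is shown. Each holds TGANTCA, the palindromic letters recognised by AP-1 (Fos and Jun) factors, in capitals. A stretch of Socs3 is shown because it holds TTCNNNGAA, the palindrome bound by STAT dimers, also in capitals. The sequences are from RefSeq promoter windows of GRCm38.p6, written 5′ to 3′ on the strand of the gene, and end before the RefSeq start site. Those of Il11 and Socs3 lie inside the span of the gene model and not upstream of it. The Socs3 model runs from 117966079 to 117970047 on the minus strand. They cover chr11:4257322-4257436 (plus strand) for Lif, chr7:4778148-4778279 (minus strand) for Il11 and chr11:117969432-117969570 (minus strand) for Socs3.
Lif: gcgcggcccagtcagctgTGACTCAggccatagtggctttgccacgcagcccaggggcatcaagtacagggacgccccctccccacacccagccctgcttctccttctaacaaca
Il11: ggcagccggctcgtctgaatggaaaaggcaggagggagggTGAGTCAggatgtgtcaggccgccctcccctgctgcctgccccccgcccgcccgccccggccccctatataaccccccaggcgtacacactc
Socs3: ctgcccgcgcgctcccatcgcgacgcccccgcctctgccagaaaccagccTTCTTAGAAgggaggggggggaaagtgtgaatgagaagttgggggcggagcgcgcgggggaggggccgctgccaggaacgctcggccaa

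The first base of the match lay 228 bases before the start site in Lif, 98 in Il11 and 154 in Socs3. All 10 genes had a RefSeq window, 13 windows in all, of which Il11 has 2 and the match is in one. TGANTCA, which reads the same on both strands, was present in no window of the other 8 genes and in 7.81% of all 32851 windows of the same 300 bases. TTCNNNGAA was in no window of the other 9 and in 8.30% of all windows, again on both strands. These are matches of letters, and binding was not measured.

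Markers of the cell types that make these ligands differed between the libraries as well. In bulk tissue, fewer cells of a type and less RNA per cell cannot be told apart. Of 13 general epithelial markers, 11 were higher in d/d and none lower, beside 10.2% and 8.28% of all genes, none was at 0, and their summed FPKM was 434 in f/f against 2603 in d/d. Of 10 gland markers, 9 passed the filter and 7 of these were lower in d/d with none higher. Their sum was 2289.5 FPKM in f/f against 16.1 in d/d, with Prss28, Spink1 and Ttr listed at 0 in d/d and Gal at 0 in f/f. Most of the f/f sum came from the secreted products Prss29, Spink1, Prap1 and Prss28. Prss28, Prss29, Spink1, Ttr, Wfdc3 and Calb1 were under 1 FPKM in d/d and passed the filter through f/f alone. The 2 markers within the line were the gland transcription factor Foxa2, at 5.11 and 3.56 FPKM, and the chemokine Cxcl15, with a log2 ratio of -0.58. Lif, in textbook accounts a product of the glands, was thus higher in the library in which most gland markers were lower. Of 12 stromal markers 8 were lower and none higher, with sums of 5149.6 and 3095 FPKM and none at 0. That sum is carried by abundant matrix genes such as Col1a1, at 837 and 682 FPKM, and Dcn, at 911 and 811. The median log2 ratio of the 12 markers was -1.63, and that of Il11 was -1.73. The markers ranged from Postn at -2.73 to Col1a2 at -0.13. The part of these cell types in the ligand values was not tested.

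The receptor genes differed less than the ligands, and none of the 4 passed the 2-fold line. Il6st, the shared gp130 chain, was 112 FPKM in f/f against 187 in d/d, a log2 ratio of 0.74. Lifr, the chain that LIF binds, was 20.0 and 16.6 FPKM, a log2 ratio of -0.25. The gp130 gene was thus 5.60-fold above Lifr in f/f and 11.3-fold in d/d. Il6ra, the chain specific to interleukin-6, was 3.55 and 6.13 FPKM, with a log2 ratio of 0.65. Il11ra1, the chain specific to interleukin-11, was 87.1 and 52.6 FPKM, a log2 ratio of -0.72. Il11 and its receptor were therefore both at a lower level in d/d, although the receptor did not pass the line. Lifr lay 20.5-fold above its ligand Lif in f/f and 1.30-fold above it in d/d.

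The value of Il11ra1 is less certain than those of the other members, because near copies of the gene exist. Of the 1960 stretches of 50 bases in its longest coding transcript, 46.5% also occur in the gene model Gm13305. That copy was at 2.49 FPKM in f/f against 2.11 in d/d, and the copy Il11ra2, summed over 3 rows, was at 2.79 and 1.85. The model of Il11ra1 also overlaps Galt on the same strand and further genes on the opposite strand. For 6 other members no such stretch was shared with another gene on either strand. Il11, Il6ra and Stat3 shared 3.42%, 2.25% and 0.384%.

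Among the kinases, Jak1 was lower in d/d and Jak2 was not. Jak1, the kinase on which gp130 signalling chiefly depends, was 273 FPKM in f/f against 95.7 in d/d, a 2.86-fold lower level with a log2 ratio of -1.50. It was the most abundant of the 10 genes in f/f and came second to Il6st in d/d. At or below its ratio lay 590 of 16263 genes. Jak2 was 23.9 FPKM in f/f against 35.0 in d/d, a log2 ratio of 0.53. The excess of Jak1 over Jak2 was 11.5-fold in f/f and 2.74-fold in d/d.

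The other Janus kinases showed no difference of that size. Tyk2, which gp130 can also use, was 9.58 and 10.1 FPKM, and Jak3, a kinase of lymphocytes, was 7.97 and 10.3 (both named after their values were seen). Jak1 made up 86.8% of the summed FPKM of the 4 kinases in f/f against 63.3% in d/d, where the sum was 151 FPKM against 315 in f/f. The Jak1 values correspond to about 23800.5 and 9788.9 fragments at the estimated depth. Raver2, whose model overlaps Jak1 on the opposite strand, was 6.59 and 1.32 FPKM. Its transcripts shared no 50-base stretch with the longest coding transcript of Jak1, the only Jak1 transcript searched. The model Gm12785 overlaps Jak1 on the same strand and likewise shared no such stretch with its longest coding transcript.

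Jak1 is made by most cell types, and markers of several tissue compartments were lower in the same library, whereas those of others were higher. Over all genes 8.28% were lower and 10.2% higher. Besides the stroma, 4 of 9 endothelial markers were lower and none higher, with sums of 531 and 268 FPKM, 1.98-fold lower in d/d, and a median log2 ratio of -0.96. Of 8 smooth muscle markers 3 were lower and none higher, with sums of 4936 and 3222 FPKM, 1.53-fold lower, and a median of -0.84. Of 13 general epithelial markers 11 were higher and none lower, and of 10 macrophage and monocyte markers 4 were higher and none lower. No marker of these lists was at 0. Their part in the Jak1 value was not tested.

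Stat3, the transcription factor of the pathway, was 91.3 FPKM in f/f against 72.7 in d/d, a log2 ratio of -0.32. It was the most abundant of the 7 STAT genes in both libraries, with 38.6% of their summed FPKM in f/f against 30.0% in d/d. Socs3, the feedback inhibitor and a textbook target of STAT3, was 23.8 and 17.6 FPKM, a log2 ratio of -0.41. The ratio of Stat3 to Socs3 was close in both libraries, 3.84 and 4.14. These are RNA levels, and phosphorylation of STAT3 was not measured.

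Of the 10 members, 1 was higher by the 2-fold line, beside a background of 10.2% of the 16263 genes, and 2 were lower, beside 8.28%. In either direction the line was passed by 3 of 10 members and by 18.4% of all genes. The count of higher members is at the background, and that of lower members differs from it by about 1 gene. The median log2 ratio of the members was -0.29 and that of all genes -0.01. The 7 members within the line lay between -0.72 and 0.74. In the order of abundance, Stat3, Il11ra1, Jak2, Socs3 and Lifr held the third to seventh places in both libraries, Il6ra the ninth, and Jak1 with Il6st and Lif with Il11 exchanged the ends.

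**Figure D2:**
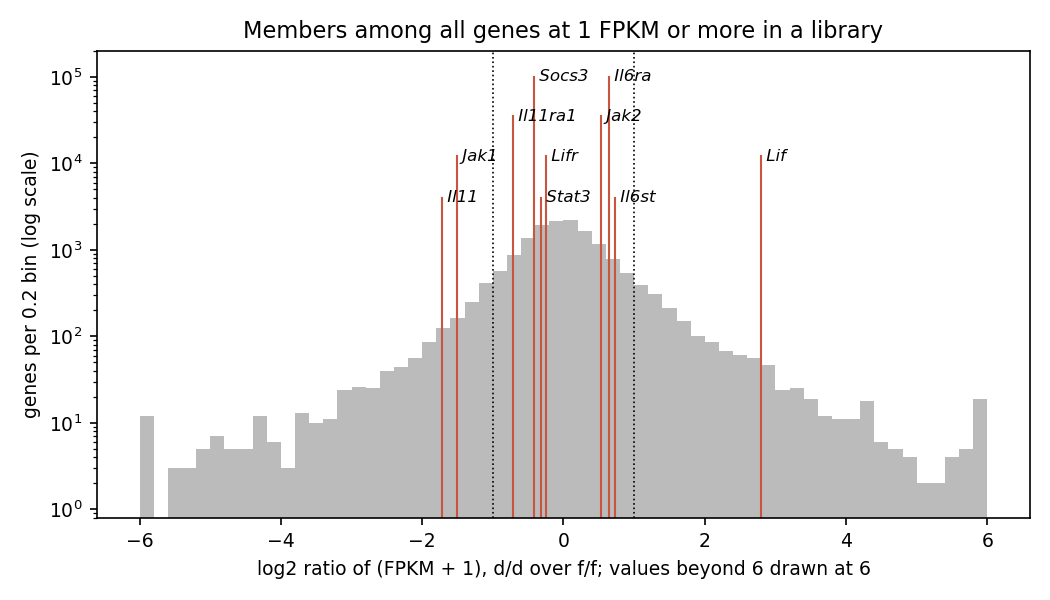
Histogram of the log2 ratios of (FPKM + 1), d/d over f/f, for the 16263 genes at 1 FPKM or more in a library, with a log count axis, dotted lines at the 2-fold limits and red lines at the 10 members. Lif at 2.80 lies in the upper tail, Il11 at -1.73 and Jak1 at -1.50 lie in the lower tail, and the other 7 lie between -0.72 and 0.74.

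The remaining ligands of the family were all at a higher FPKM in d/d where they were measured. Of 9 further ligands and ligand subunits, 6 passed the filter, of which 3 were higher and none lower, beside 10.2% and 8.28% of all genes, with a median log2 ratio of 1.00. Cardiotrophin 1, Ctf1, was 5.07 FPKM in f/f against 12.2 in d/d. Ciliary neurotrophic factor, Cntf, was 0.203 and 2.97, and Ebi3, a subunit of interleukin-27, was 1.46 and 6.22. Both Cntf and the cytokine Osm, at 0.441 and 1.10 FPKM, passed the filter through d/d alone. Il6 itself stayed at 0.299 and 0.338 FPKM and Il31 was listed at 0 in both libraries (Osm, Il6 and Il31 named after their values were seen).

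Lif and Il11 changed places furthest among the 11 ligand genes, by 5 ranks each. Lif ranked 6 in f/f, with 4.17% of their summed FPKM, and 1 in d/d, with 24.7%. Il11 moved from rank 3, with 19.4%, to rank 8, with 1.31%. Clcf1, a ligand of the ciliary neurotrophic factor receptor, led in f/f at 9.36 FPKM and was second in d/d at 12.2 (named after its values were seen). The summed FPKM of the 11 genes was 23.4 in f/f against 51.7 in d/d.

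**Figure D3:**
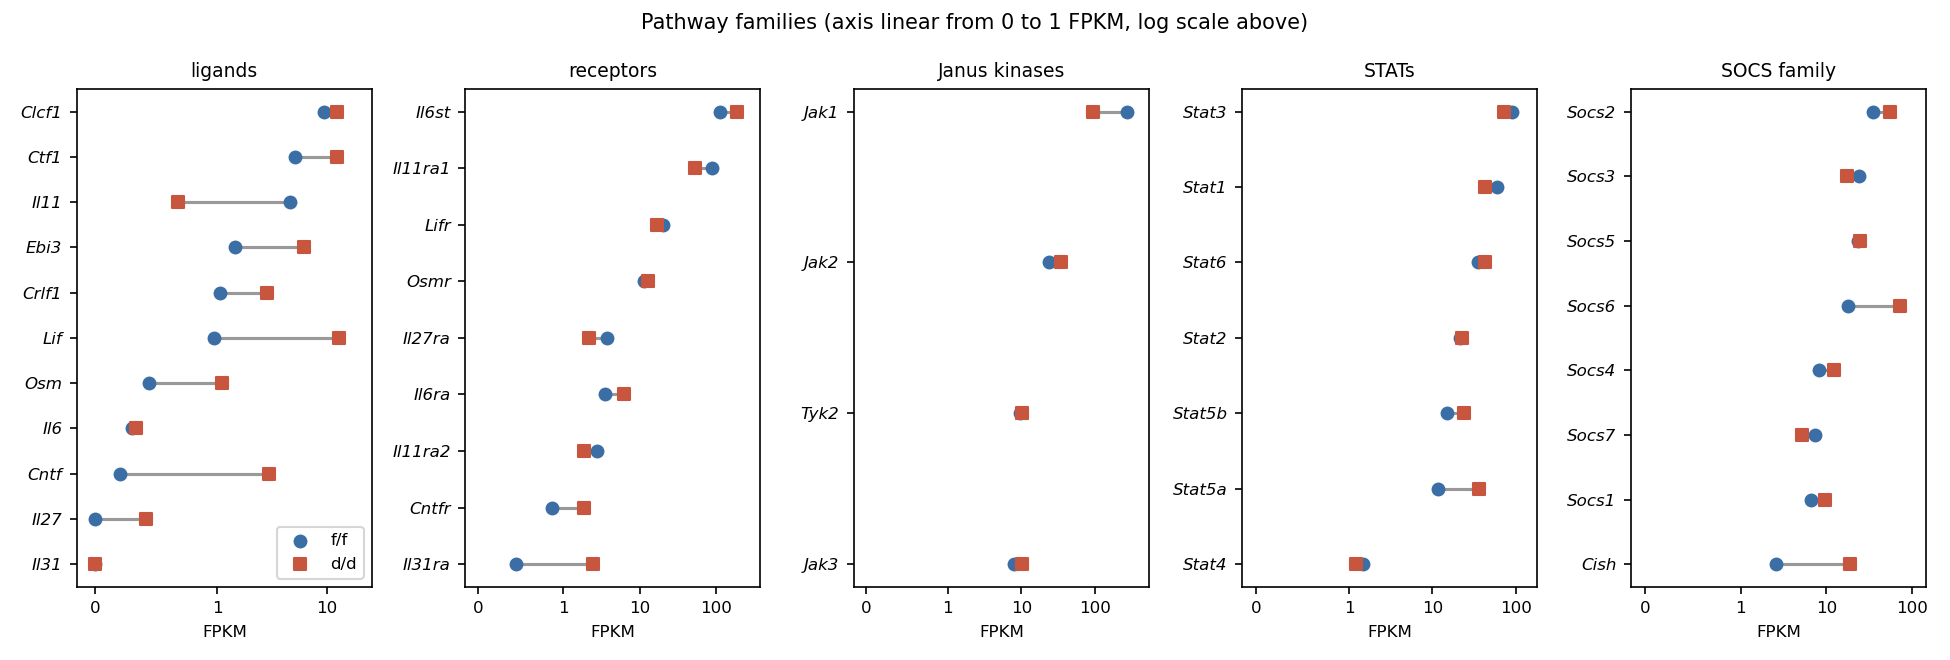
FPKM of the ligands, receptors, Janus kinases, STATs and SOCS genes in the f/f library (circles) and the d/d library (squares), on axes that are linear from 0 to 1 and logarithmic above. Lif, Socs6, Cish and Stat5a lie farther right in d/d, whereas Jak1 and Il11 lie farther left.

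Of the 5 further receptor genes, Il31ra, a receptor chain for interleukin-31, was higher at 0.448 FPKM in f/f against 2.43 in d/d, and none was lower. It passed the filter through d/d alone, and the list had a median log2 ratio of 0.18. Of 8 further kinases and adaptors none passed the line, with a median of 0.15. Over all genes 10.2% were higher and 8.28% lower, here and in the lists that follow. Among these adaptors Shc1 was 70.7 and 91.4 FPKM, Grb2 47.1 and 72.3, and the phosphatase Ptpn11, which joins gp130 to the Ras pathway, 51.1 and 43.1. Of the 6 other STAT genes, Stat5a, which acts downstream of prolactin and growth hormone, was higher at 11.6 and 35.9 FPKM, a log2 ratio of 1.55. Stat3 was 7.87-fold above Stat5a in f/f and 2.03-fold in d/d. Stat5a overlaps Stat3 on the opposite strand, and its transcripts hold 0.384% of the 50-base stretches of the longest coding transcript of Stat3.

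Of 15 further inhibitors, 14 passed the filter, with a median log2 ratio of 0.22. Of these 14, 2 were higher and none lower, near the shares of 10.2% and 8.28% of all genes. Cish, an inhibitor induced by STAT5, was 2.62 FPKM in f/f against 19.1 in d/d, a 7.30-fold higher level. Socs6, whose product acts on receptor tyrosine kinases, was 17.7 and 72.6, a 4.09-fold higher level. Socs3 was the second most abundant of the 8 SOCS genes in f/f, with 19.0% of their summed FPKM, and the fifth in d/d, with 8.09%.

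Textbook targets of STAT3 other than Socs3 went both ways. Of 35 genes, 32 passed the filter, of which 7 were higher, 8 lower and 17 neither, with a median log2 ratio of 0.15. These counts stand beside backgrounds of 10.2% higher and 8.28% lower, and the calls were divided between the directions. Lcn2, an antimicrobial lipocalin, was 13.4 FPKM in f/f against 878 in d/d. Muc1, a mucin of the epithelial surface, was 15.4 and 176, and A2m, a protease inhibitor, was 11.5 and 92.5. Bcl3, a partner of NF-kB, was also higher at 15.0 and 35.6 (named after its values were seen). Lcn2 and Muc1 are epithelial products, and the epithelial markers were higher in the same library as given above. The part of the epithelium in these values was not tested.

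On the lower side, Steap4, a metalloreductase, was 36.6 FPKM in f/f against 3.73 in d/d. The fibrinogen chain Fgg was 3.37 FPKM and the lectin Reg3b 3.30 FPKM in f/f, whereas both stood at 0 in d/d. Myc, the growth regulator, was 77.8 and 20.6, and the acute-phase protein haptoglobin, Hp, was 57.0 and 13.8. Both were named after their values were seen. Socs3, at -0.41, lay between these extremes.

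**Figure D4:**
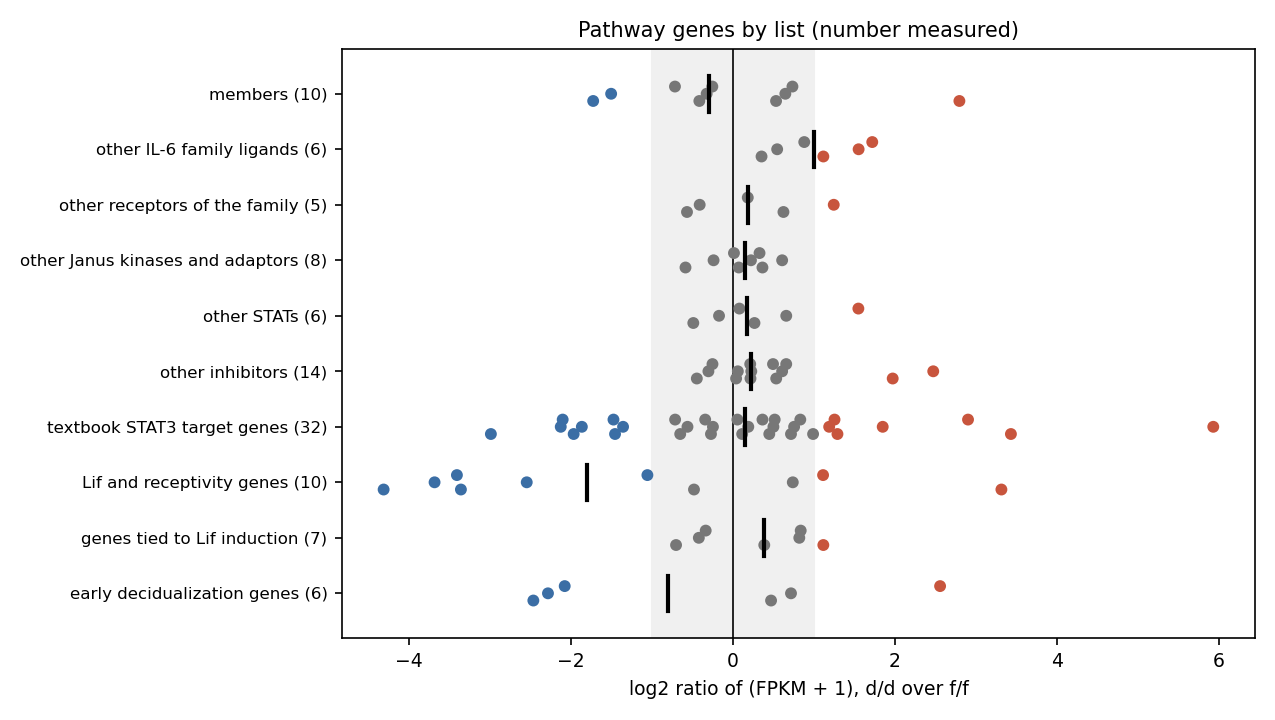
Log2 ratios of (FPKM + 1), d/d over f/f, for each gene that passed the filter in the 10 members and 9 further lists, with a black bar at each median and grey shading within the 2-fold line. The ligands other than Lif and Il11 lie above 0, the STAT3 targets spread from -2.99 to 5.93, and the Lif and receptivity genes have a median of -1.80.

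Genes that mouse studies tie to Lif, or to the same window of receptivity, were mostly lower in d/d. Of 11 genes 10 passed the filter, of which 6 were lower and 2 higher, beside 8.28% and 10.2% of all genes, with a median log2 ratio of -1.80. Areg, Coch, Ihh, Ptgs2 and Acod1 were under 1 FPKM in d/d and passed through f/f alone, and Msx2 passed through d/d alone. The gland and stromal markers were lower in the same library, and their part in these values was not tested. Coch, a secreted protein that responds to LIF in the mouse uterus, was 12.0 FPKM in f/f against 0.219 in d/d. Igfbp3 was 480 and 23.2 FPKM and Ptgs2, the inducible prostaglandin synthase, was 1.29 and 0.103. Areg, Ihh and Acod1 were also lower, with log2 ratios of -2.55, -3.36 and -3.69, and these genes are known to respond to progesterone as well. Higher were the homeobox genes Msx1, at 30.7 and 67.6 FPKM, and Msx2, at 0.373 and 12.7. In the mouse uterus Msx1 is known to be lost from the epithelium as LIF acts.

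Of 7 genes tied to the induction of Lif, 1 was higher and none lower, beside 10.2% and 8.28% of all genes. This was Sox17, at 54.9 FPKM in f/f against 120 in d/d, and the median log2 ratio of the list was 0.39. The estrogen receptor Esr1 had a log2 ratio of 0.84, Foxa2, one of the gland markers above, -0.42 and Trp53, which activates Lif in mice, -0.70 (these 3 named after their values were seen).

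Il11 acts in the setting of early decidualization. Of 8 genes of that setting 6 passed the filter, 3 lower and 1 higher, beside 8.28% and 10.2% of all genes. The median log2 ratio of the 6 was -0.80. Bmp2, a ligand needed for decidualization, was 9.63 FPKM in f/f against 1.52 in d/d. The stromal transcription factors Hoxa10 and Hand2 had log2 ratios of -2.47 and -2.28. Both are also among the 12 stromal markers, of which 8 were lower in the same library, and the part of the stroma in these values was not tested. Alpl, the alkaline phosphatase, was higher at 9.26 and 59.5 FPKM. The decidual hormone Prl8a2 stood at 0.425 FPKM in f/f but at 0 in d/d, under the filter in both (named after its values were seen).

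Immune and fat-cell markers also differed between the libraries, beside 10.2% of all genes higher and 8.28% lower. Of 10 macrophage and monocyte markers 4 were higher and none lower, with sums of 901 and 1968 FPKM and none at 0. These cells are a known source of Il6ra and Osm, which were at higher values in d/d. Of 8 fat-cell markers 6 passed the filter, 5 higher and 1 lower, with sums of 8.69 and 113 FPKM. Plin1, Lep, Cidec and Retn were listed at 0 in f/f. Adipoq, Cfd, Cidec and Retn passed the filter through d/d alone, and Pck1 through f/f alone. Of 10 T and NK cell markers 9 passed, 3 higher and 5 lower (sums of 196 and 58.3 FPKM, none at 0). The higher ones were the T cell genes Cd3e, Cd3g and Cd4, and the lower ones the NK and cytotoxic genes Gzmb, Nkg7, Ncr1, Prf1 and Klrb1c, with Nkg7 at 56.3 and 2.42 FPKM. Among these T and NK genes, Gzmb, Ncr1, Prf1 and Klrb1c passed the filter through f/f alone and Cd4 through d/d alone. Of 9 neutrophil markers 5 passed, 2 higher and none lower (116 and 179 FPKM). Ly6g was listed at 0 in f/f, Camp at 0 in d/d, and Elane and Ngp at 0 in both. Ly6g and Mpo passed the filter through d/d alone. The part of the immune and fat cells in the pathway values was not tested.

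Blastocyst RNA was hardly represented, with Pou5f1, Cdx2 and Zfp42 listed at 0 in both libraries and Nanog, Dppa3 and Sox2 at 0 in f/f. The summed FPKM of these 7 markers, 3.42 and 1.19, was nearly all Eomes in f/f and Dppa3 in d/d. Of 5 oviduct markers 4 passed, 1 higher and 2 lower, beside 10.2% and 8.28% of all genes. Their sums were 30.3 and 24.6 FPKM, with Dynlrb2 at 0 in both. Foxj1 passed through d/d alone, and Ovgp1 and Cfap126 through f/f alone. Hoxa10, which the text above counts among the stromal markers, was detected in both libraries (357 and 63.7 FPKM) but was lower in d/d. A single gene does not settle which tissue was taken, and the gland and fat-cell markers differed as given above. Whether both libraries held the same parts of the uterus was not tested. Mettl14 was 13.6 FPKM in f/f against 3.21 in d/d, the order that the labels give. None of the 14 reference genes passed the line (median log2 ratio -0.09, sums of 16880 and 18806 FPKM).

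The transcripts of the 10 genes were searched for GGACT, the letters most often methylated by the Mettl3-Mettl14 enzyme, on the sense strand of the longest coding transcript. The median density over 13593 genes was 1.05 matches per kb, with quartiles of 0.644 and 1.54, and 7.77% of the genes had none. Lif held 7 matches, 1.74 per kb, and Il11 held 4, or 2.05 per kb. Il11ra1 had 1.99 per kb, Il6ra 1.74, Jak1 1.43, Socs3 1.18 and Il6st 1.15. Lifr, Jak2 and Stat3 lay below the median, at 0.829, 0.795 and 0.497 per kb. The densities were highest in Il11, Il11ra1, Lif and Il6ra, of which Il11ra1 and Il6ra did not pass the 2-fold line. Methylation was not measured in these libraries, and a match is not a methylated site.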

How the data were processed

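RNA-seq of whole uterus was analysed in 2 libraries, 1 per genotype. Per the labels' protocols, TRIzol was used for RNA extraction and the TruSeq RNA kit for library preparation. The deposited values are FPKM made by the authors. HISAT2 2.2.1, Cufflinks 2.2.1 and the build mm10 are named in the submitters' processing notes, whereas neither strandedness nor the annotation release was stated. Cufflinks shares fragments between similar and overlapping models.

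Rows sharing a symbol were summed. Log2 ratios were taken on FPKM + 1, which understates changes of low genes, over genes at 1 FPKM or more in either library, and called at 2-fold. No test was possible. Depth was the value at which FPKM times length came closest to whole fragments. Of low values of genes with 1 transcript of at least 2000 nt, 75.2% in f/f and 71.9% in d/d lay within 0.1 of a whole number. It used full transcript length, is approximate and served only to describe precision. Positions and transcripts come from GENCODE M21 (GRCm38, the assembly called mm10), and promoters from RefSeq. Ratios were tested on simulated data. Python 3.11.15, pandas 2.3.3 and matplotlib 3.10.9 were used.

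Members, 9 pathway lists and 12 marker lists came from general knowledge and were chosen with earlier results of these data known. Named were all members and, per pathway list, the genes past 2-fold (the 6 largest in lists of more than 10 measured), or up to 3 of the most abundant where none passed. Any other gene was named after its values were seen. Likeness across 2 libraries is a single ratio, so no gene is named for it.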

Additional observations from a re-analysis of the deposited data

How the results depend on the processing

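The 109 recomputed ratios of the 10 genes, over 11 alternatives, all kept their direction, and 105 kept their side of the 2-fold line. The direction was largely fixed beforehand, because a pseudocount, a filter or the fold line cannot change the sign of a ratio. Each member has a single row per library, so the choice of row changed nothing. The largest scaling step was -0.156 in log2, smaller in size than the smallest member ratio, Lifr at -0.25. The alternatives covered pseudocount, filter, scaling, rows per symbol and the line itself, and the ratio without a pseudocount was added after the data were seen. The log2 ratio of Lif was 3.58 with a pseudocount of 0.1, 1.57 with 5 and 3.71 without one. That of Il11 was -2.58, -0.75 and -2.75, so with a pseudocount of 5 Il11 was no longer called. A filter of 5 FPKM removed Il11, and under either setting 1 member was lower. A pseudocount of 5 left 869 genes higher and 539 lower of all. A 1.5-fold line gave 3063 and 2888. With it 3 members each were higher and lower, since Il6st at 0.74 and Il6ra at 0.65 joined Lif and Il11ra1 at -0.72 joined the lower ones. The ratio of Jak1 stayed between -1.66 and -1.47.

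Of 270 values recomputed for the pathway lists, 247 stayed within the limits set. A pseudocount of 0.1 raised the higher ligands from 3 to 5 and the higher receptors from 1 to 2, and one of 5 left none of either. A filter of 5 FPKM also left no higher receptor. With that pseudocount or that filter 5 STAT3 targets were lower in place of 8, and a 1.5-fold line gave 11 higher in place of 7. That line also gave 4 higher inhibitors in place of 2, and 2 higher STAT genes, receptors and decidualization genes in place of 1. With it 1 kinase or adaptor was higher and 1 lower, and 3 genes tied to Lif induction were higher and 1 lower. The median of the Lif and receptivity genes ranged from -3.57 with a pseudocount of 0.1 to -0.70 with 5, and was -1.06 without a filter and -2.55 with one of 5 FPKM. Scaling to the reference genes, whose mean rests mostly on Actb, moved the median of all genes to -0.16 and that of the STAT3 targets to -0.0016. It left 1 Lif and receptivity gene higher in place of 2 and no Lif induction gene. No paired analysis was possible because each genotype has 1 library, and for the same reason no library could be left out. Depth limits chiefly Il11 in d/d and Lif in f/f.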

Other observations

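Receptor chains outside the gp130 family that hold the same kinases were looked up after the other values were seen. Of 9 chains known to bind Jak1, 7 passed the filter, 1 was higher and 1 lower, beside 10.2% and 8.28% of all genes, and their median log2 ratio was 0.36. Il4ra, the interleukin-4 receptor, was 24.3 FPKM in f/f against 90.3 in d/d. Il2rb, the receptor chain for interleukins 2 and 15 that killer cells carry, was 31.6 and 2.55, and the NK markers Nkg7 and Ncr1 were also lower in d/d. The interferon chains Ifngr1 and Ifnar2 were 40.4 and 73.0, and 50.7 and 44.9 FPKM.

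Of 8 chains known to bind Jak2, 5 passed the filter, 2 were higher and none lower, beside the same shares of all genes, and the median log2 ratio was 0.42. The growth hormone receptor Ghr, which signals through Jak2 to STAT5, was 12.6 FPKM in f/f against 38.3 in d/d, in the same direction as Stat5a and Cish. STAT5 activity was not measured, and a link among these genes was not tested. Ifngr2 was 20.7 and 46.0 FPKM, whereas the leptin receptor Lepr was 15.1 and 7.35, a log2 ratio of -0.95. The prolactin receptor Prlr was 0.852 and 1.47. Adam10 and Adam17, the proteases that release soluble interleukin-6 receptor, were 45.1 and 70.1 FPKM, and 22.8 and 37.2, neither past the 2-fold line.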
